A study of Arabidopsis thaliana with 51 samples.

Results

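Transcript levels in cotyledons and hypocotyls of Arabidopsis thaliana labelled dark were compared on 5 arrays of a series of 51. Members were all 3 arrays labelled cotyledon dark and both labelled hypocotyl dark. On each, total RNA of the organ in channel 2 was hybridised together with total RNA of cultured cells in channel 1, so that every value is a log2 ratio of the organ to the same kind of reference. The groups set beside them were light cotyledon (2 arrays), light hypocotyl (2 arrays) and dark root (2 arrays), against cultured cells in the same way. The labels give no strain, age, line of cultured cells or growth conditions, do not say whether the dark organs ever saw light, and do not say that arrays of a group came from separate plants. The p-values therefore measure the spread between arrays of a group, which may be technical and was estimated over all 51 arrays. Of these, 45 were set against cultured cells, and the rest compared light with dark organs directly. Light root, rosette and cauline leaf, stem, germinating seed, silique, pistil, sepal, petal and stamen were read only as a description. Leaf and stem RNA was in channel 1, and the light root arrays held the organ in opposite channels.

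Cotyledons are the embryonic leaves and the hypocotyl is the embryonic stem below them, joined to the root. In darkness the hypocotyl elongates, while the cotyledons hold plastids that lack chlorophyll but already carry part of the machinery that makes it. Chlorophyll synthesis runs from glutamate through aminolevulinate and the porphyrins to protochlorophyllide, whose reduction in flowering plants needs light. Antenna proteins then bind chlorophyll and pass energy to the photosystems, which drive electron transport and the ATP synthase of the thylakoid.

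The 5 arrays carried 24630 to 26468 values each, and the array count limits the precision. Each array was centred on its own median. That ratios run as organ over cultured cells is likely rather than known. It rests on the positive ratios of photosynthesis genes in light cotyledon, 8 of 8, and on the light root arrays, which held the organ in opposite channels and still correlated at 0.75 over 25305 probes. Dark cotyledon replicate 1 stood apart from its group. It correlated at 0.75 with each of the other dark cotyledon arrays, which correlated at 0.94 with each other, and the dark hypocotyl arrays correlated at 0.89. Between the organs in the dark, correlations were 0.61 to 0.71. Values without dark cotyledon replicate 1 are given wherever a call ends without it.

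Of 23580 probes tested, 3697 (15.7%) were called between dark cotyledon and dark hypocotyl, a call being a difference of 2-fold or more with an adjusted p below 0.05 in limma's moderated fit. Of these, 2331 probes (9.89%) were higher and 1366 (5.79%) lower in dark cotyledon. Without dark cotyledon replicate 1, 3025 probes were called. The split depends on centring: 63.1% of calls were higher in dark cotyledon with each array centred on all its probes, against 52.2% when centred on the named probes alone and 54.7% with no centring. Centring on named probes moved the median difference of all probes to -0.0022, from 0.15 in the reported fit. Calls at 16-fold or more were nearly even, with 90 probes higher and 86 lower in dark cotyledon. Only some probes carry a gene name in the annotation used, and 3351 of the called probes were counted and not named.

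Among 1614 named genes, 235 (14.6%) were higher and 99 (6.13%) lower in dark cotyledon, 20.7% in all. Without dark cotyledon replicate 1, 180 named genes were higher and 99 lower, and 250 of the 334 genes kept their call. In 332 of the 334 genes the dark cotyledon and dark hypocotyl arrays did not overlap, the exceptions being YAB2 and AT1G70420, and they did not overlap at 64.5% of all named probes. At 16-fold or more, 10 named genes were higher and 8 lower. The plot of mean levels shows both arms: a dense band of genes just over 2-fold higher in dark cotyledon, with photosynthesis genes far above it, and a looser set of genes lower in dark cotyledon that reached high ratios in dark hypocotyl.

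**Figure D1:**
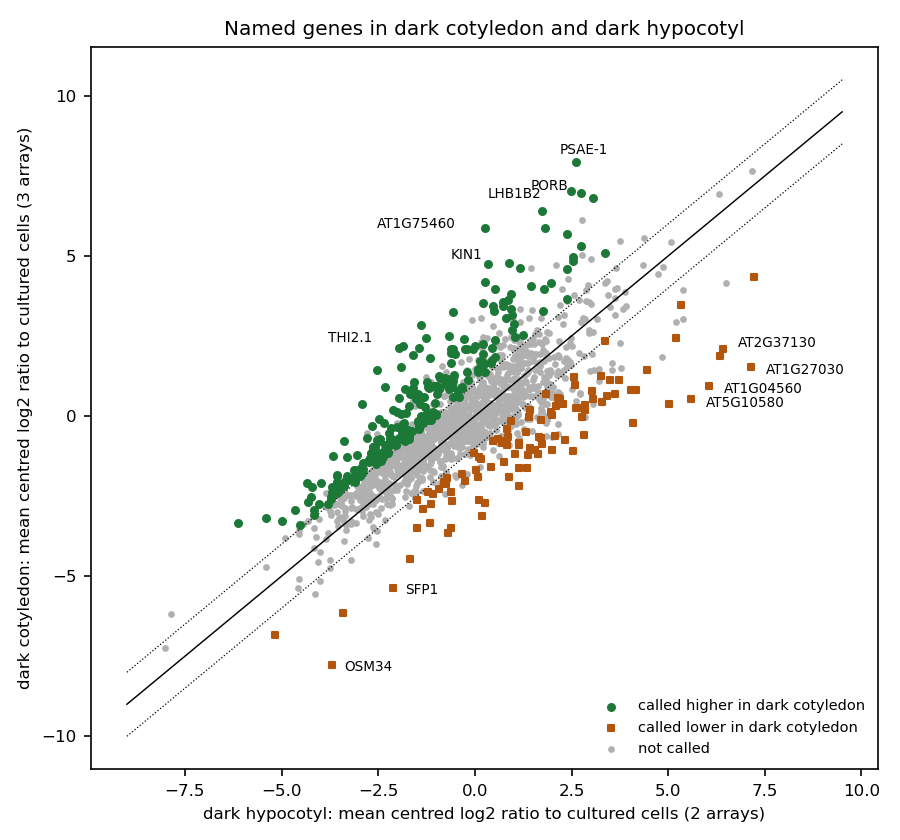
Mean centred log2 ratio to cultured cells of each named gene in dark cotyledon (vertical, 3 arrays) against dark hypocotyl (horizontal, 2 arrays). The 235 green circles were called higher and the 99 brown squares lower in dark cotyledon, grey points were not called, and the dotted lines mark a 2-fold difference.

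Genes of the photosynthetic apparatus had the highest median of the 25 lists with at least 3 tested genes. Each list count in the dark stands beside 14.6% of all named genes called higher and 6.13% called lower. Of 8 photosynthesis genes tested, 7 were higher in dark cotyledon and none was lower, with a median log2 difference of 4.24 against 0.31 over all named genes. Without dark cotyledon replicate 1, 6 were called. LHB1B2, a chlorophyll-binding protein of the main photosystem II antenna, had levels of 7.16, 6.86 and 7.02 in dark cotyledon, against 2.18 and 2.79 in dark hypocotyl, a difference of 4.53 ± 0.63 (SE, n = 3 and 2, adjusted p = 4.08e-06). The arrays of each organ lay close together and far from those of the other.

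CP29, a minor antenna protein that connects the main antenna to the photosystem II core, is encoded by 3 genes of the list, which did not move alike. LHCB4.1 read 3.51, 2.57 and 2.48 in dark cotyledon and -1.38 and -1.42 in dark hypocotyl, as the mean of 2 probes, a difference of 4.25 ± 0.40 (adjusted p = 1.2e-09, the higher of its probes). LHCB4.2 read 6.24, 6.14 and 6.79 in dark cotyledon and 1.62 and 1.85 in dark hypocotyl, a difference of 4.66 ± 1.37 (adjusted p = 0.016). LHCB4.3, the third CP29 gene, had -1.05, -0.41 and -0.46 in dark cotyledon, against -0.24 and -0.43 in dark hypocotyl. Its organs overlapped, and its difference of -0.30 ± 0.50 was not called (adjusted p = 0.742). Closely related genes can share probe signal, and how far these 3 do was not analysed here. LHCB4.2 lost its call without dark hypocotyl replicate 1 (adjusted p = 0.113) and without replicate 2 (0.0894).

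Photosystem I was represented by PSAE-1, its subunit E on the stromal side, and PSAN, its subunit N in the lumen. PSAE-1 had 7.02, 9.997 and 6.74 in dark cotyledon and 2.02 and 3.23 in dark hypocotyl, with dark cotyledon replicate 2 well above the other dark cotyledon arrays (difference 5.29 ± 1.29, adjusted p = 0.00453). PSAN had 3.04, 3.84 and 3.83 in dark cotyledon and 0.84 and 0.59 in dark hypocotyl (difference 2.85 ± 0.38, adjusted p = 2.38e-06). ATPC1, the gamma subunit of the chloroplast ATP synthase, read 5.67, 7.15 and 8.07 in dark cotyledon and 2.8 and 2.68 in dark hypocotyl, a difference of 4.22 ± 0.70 (adjusted p = 9.54e-05). PSB27, an assembly factor of photosystem II, showed the smallest called difference of the list, with 1.82, 1.16 and 1.14 in dark cotyledon and 0.38 and 0.14 in dark hypocotyl. Its difference of 1.12 ± 0.27 was called (adjusted p = 0.00374) but not without dark cotyledon replicate 1, where it was 0.89 and under 2-fold (adjusted p = 0.0314). Calls were also lost for PSAE-1 without dark hypocotyl replicate 1 (adjusted p = 0.0797) and for PSB27 without replicate 2 (0.0714).

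These genes were also read beside other groups, as a description. The dark levels are those of the contrast itself, and the light cotyledon ratios already served to infer the direction. The labels are therefore not tested by them. The median level of the photosynthesis list was 4.98 in dark cotyledon and 1.23 in dark hypocotyl, against 7.57 in light cotyledon and 3.60 in light hypocotyl. In dark root it was 0.51. In RNA from whole organs, fewer cells of a type and less RNA per cell cannot be told apart.

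All 5 genes of chlorophyll synthesis tested were higher in dark cotyledon, with a median difference of 2.41, and 4 of them were called without dark cotyledon replicate 1. They are described in the order of the pathway. GSA1, the aminomutase that completes aminolevulinate, had 1.73, 0.76 and 0.85 in dark cotyledon and -0.16 and -0.20 in dark hypocotyl (difference 1.29 ± 0.42, adjusted p = 0.0283). It is the gene of the list that lost its call without dark cotyledon replicate 1, where the difference was 0.98 (adjusted p = 0.144). HEMB1, the dehydratase that joins aminolevulinate into porphobilinogen, had -0.12, -0.62 and -0.74 in dark cotyledon and -1.83 and -1.94 in dark hypocotyl (difference 1.39 ± 0.29, adjusted p = 0.000962). HEME2, uroporphyrinogen decarboxylase, had 2.38, 1.77 and 1.79 in dark cotyledon and -0.40 and -0.84 in dark hypocotyl (difference 2.6 ± 0.36, adjusted p = 3.99e-06). In all 3 genes the dark cotyledon arrays lay above the dark hypocotyl arrays. GSA1 was also not called without dark hypocotyl replicate 1 (adjusted p = 0.135) or replicate 2 (0.146).

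CHLM, which methylates magnesium protoporphyrin, read 3.35, 3.33 and 3.31 in dark cotyledon and 0.98 and 0.86 in dark hypocotyl, a difference of 2.41 ± 0.38 (adjusted p = 2.47e-05). PORB, an oxidoreductase that carries out the light-dependent reduction of protochlorophyllide, had 5.41, 7.59 and 7.41 in dark cotyledon and 3.06 and 3.04 in dark hypocotyl. Dark cotyledon replicate 1 was the lowest of its group for this gene, and the difference was 3.75 ± 0.99 (adjusted p = 0.00732). Without dark hypocotyl replicate 1 or replicate 2, PORB missed the threshold (adjusted p = 0.0626 and 0.0615). CHLM, HEMB1 and HEME2 kept their calls under every alternative run.

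**Figure D2:**
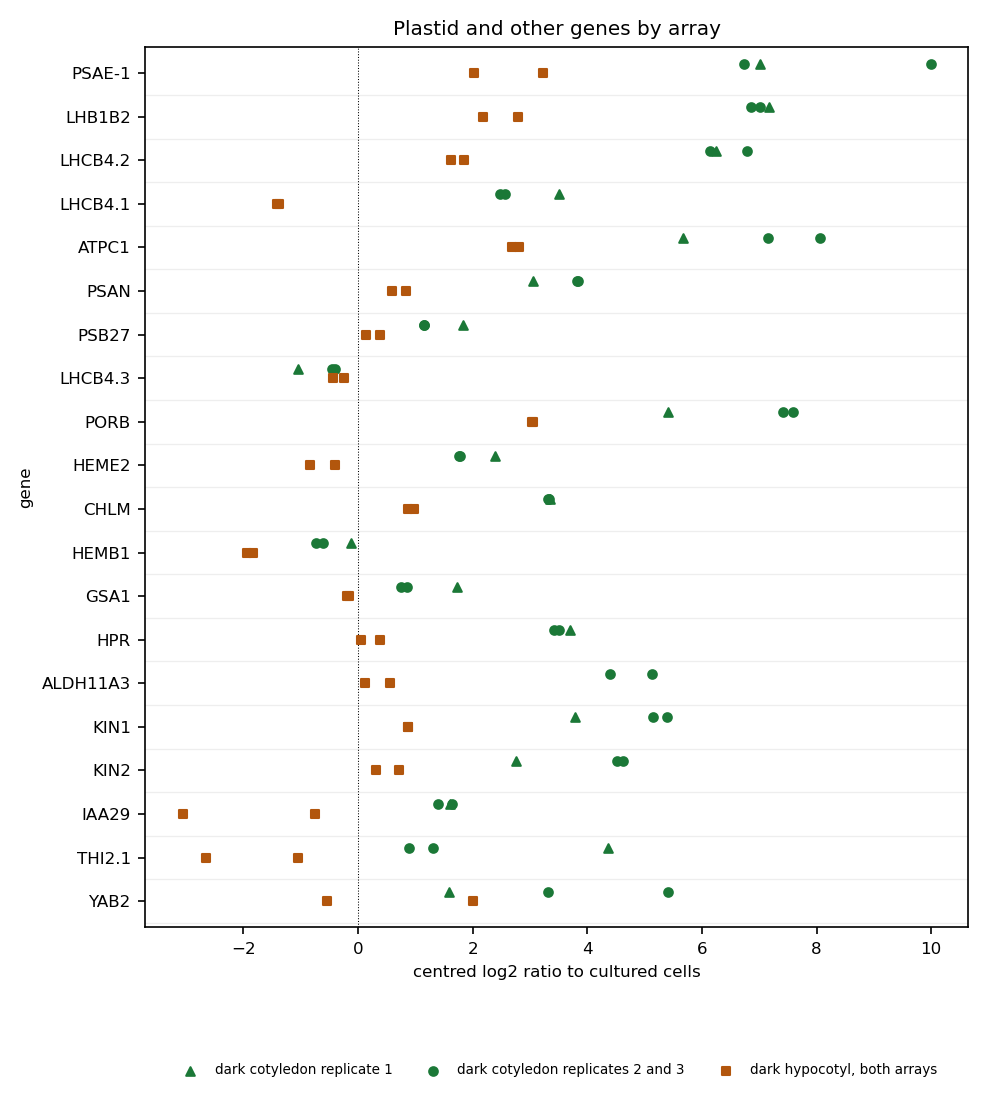
Centred log2 ratio to cultured cells on each dark cotyledon array (green, replicate 1 as triangles) and each dark hypocotyl array (brown squares), for genes of photosynthesis, chlorophyll synthesis and photorespiration and for 6 other genes. The organs are apart for all genes shown except LHCB4.3 and YAB2.

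Other plastid genes were mixed. Of 13 genes of thylakoid and plastid upkeep, 5 were higher and 1 lower in dark cotyledon, with a median difference of 1.22, and both counts were the same without dark cotyledon replicate 1, where 12 genes were tested, PIFI was called and THX was not. CHL, the chloroplastic lipocalin, had 1.32, 2.94 and 2.15 in dark cotyledon, against -1.66 and -1.23 in dark hypocotyl (difference 3.58 ± 0.72, adjusted p = 0.000722). CYTC6A, a cytochrome of the thylakoid lumen, had 2.6, 1.91 and 1.8 in dark cotyledon and 0.052 and -0.54 in dark hypocotyl (difference 2.35 ± 0.44, adjusted p = 0.000236). TAPX, the thylakoid ascorbate peroxidase, differed by 2.18 ± 0.55 (adjusted p = 0.00575), and LPA19, a photosystem II assembly protein, by 1.68 ± 0.56 (adjusted p = 0.0345). THX, thioredoxin x of the plastid, differed by 1.22 ± 0.36 (adjusted p = 0.0152) and lost its call without dark cotyledon replicate 1 (adjusted p = 0.0803). LPA19, whose levels were -1.34, -0.66 and -0.88 in dark cotyledon and -2.7 and -2.58 in dark hypocotyl, was lost under each other centring and scaling run. Without dark hypocotyl replicate 2, TAPX, THX and LPA19 were not called (adjusted p = 0.0935, 0.142 and 0.138). THX and LPA19 were not called without dark hypocotyl replicate 1 either (0.0647 and 0.18), nor LPA19 without dark cotyledon replicate 2 or 3 (0.0948 and 0.0702).

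NdhN ran the other way. This subunit of the chloroplast NADH dehydrogenase-like complex, which takes part in cyclic electron flow, had -0.44, -2.07 and -2.33 in dark cotyledon, against 1.12 and 1.17 in dark hypocotyl, a difference of -2.76 ± 0.64 (adjusted p = 0.0025). PIFI, a factor that acts with that complex, had 2.1, 5.55 and 6.25 in dark cotyledon and 1.65 and 1.25 in dark hypocotyl. Dark cotyledon replicate 1 lay near the dark hypocotyl arrays for PIFI, and its difference of 3.18 ± 1.26 was not called (adjusted p = 0.0833). Without that array it was 4.45 and was called (adjusted p = 0.0185).

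HPR, the 1 gene tested of the Calvin cycle and photorespiration list, was higher in dark cotyledon, as was ALDH11A3, which is in no list. HPR, the peroxisomal hydroxypyruvate reductase of photorespiration, had 3.69, 3.51 and 3.43 in dark cotyledon, against 0.38 and 0.05 in dark hypocotyl (difference 3.33 ± 0.77, adjusted p = 0.00244). ALDH11A3, a non-phosphorylating glyceraldehyde-3-phosphate dehydrogenase, had 4.39 and 5.13 on dark cotyledon replicates 2 and 3, with no value on replicate 1, and 0.56 and 0.12 in dark hypocotyl (difference 4.42 ± 0.93, adjusted p = 0.00135). Of 7 genes of starch and sugar metabolism, 3 were higher and none lower, with a median of 1.09. ATNTT2, the plastid ATP importer, had 1.06, 0.81 and 0.91 in dark cotyledon and -0.96 and -1.23 in dark hypocotyl (difference 2.02 ± 0.39, adjusted p = 0.000288). SBE2.2, a starch branching enzyme, differed by 1.5 ± 0.45 (adjusted p = 0.0179) and TPI, the cytosolic triosephosphate isomerase, by 1.29 ± 0.36 (adjusted p = 0.0105). SBE2.2 was not called without dark cotyledon replicate 2 (adjusted p = 0.0704), and neither SBE2.2 nor TPI without dark hypocotyl replicate 1 (0.157 and 0.0523) or replicate 2 (0.0704 and 0.113).

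Of 7 genes of mitochondrial respiration, all had positive differences, between 0.10 and 1.70, but 1 was called. It was NDB2, an external NAD(P)H dehydrogenase, with -0.52, -0.94 and -0.86 in dark cotyledon and -2.43 and -2.51 in dark hypocotyl (difference 1.7 ± 0.28, adjusted p = 5.35e-05). The median named gene differed by 0.31, and the other 6 genes did not pass the test.

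Signalling and stress genes showed some of the larger single differences. IAA29, an Aux/IAA repressor of auxin responses, had 1.61, 1.64 and 1.39 in dark cotyledon, against -0.75 and -3.06 in dark hypocotyl. The dark cotyledon arrays lay close together and the dark hypocotyl arrays far apart, and the difference was 3.45 ± 0.76 (adjusted p = 0.00177). IAA18, another repressor of that family, had -0.23, -0.37 and -0.28 in dark cotyledon and -1.29 and -1.59 in dark hypocotyl (difference 1.15 ± 0.29, adjusted p = 0.00561). Of the 4 auxin response genes tested, these 2 were called, and IAA34 and GH3.17 were not. Without dark hypocotyl replicate 2, IAA29 differed by 2.3 and IAA18 by 0.999, and neither was called (adjusted p = 0.123 and 0.0968).

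KIN1 and KIN2, closely related small proteins known for induction by cold and abscisic acid, were both higher in dark cotyledon. KIN1 had 3.79, 5.15 and 5.39 in dark cotyledon and 0.87 and 0.87 in dark hypocotyl, a difference of 3.9 ± 0.65 (adjusted p = 5.33e-05). KIN2 had 2.75, 4.61 and 4.52 in dark cotyledon and 0.72 and 0.31 in dark hypocotyl, a difference of 3.45 ± 0.58 (adjusted p = 7.81e-05). As related genes they may share probe signal. The list of 7 cold and dehydration genes did not move as one: DI19 was also higher (1.13 ± 0.31, adjusted p = 0.00939), while LEA, listed as a dehydrin, was lower, with 0.40, 1.22 and 0.47 in dark cotyledon and 3.79 and 3.46 in dark hypocotyl (-2.93 ± 0.90, adjusted p = 0.0229). Without dark cotyledon replicate 1, DI19 and LEA were not called (adjusted p = 0.0643 and 0.0634). DI19 and LEA were also not called without dark hypocotyl replicate 2 (0.113 and 0.0981), nor LEA without dark hypocotyl replicate 1 (0.153) or dark cotyledon replicate 3 (0.0556).

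THI2.1, an antimicrobial thionin, had 4.36, 1.3 and 0.90 in dark cotyledon, against -1.06 and -2.65 in dark hypocotyl. Dark cotyledon replicate 1 was far above the rest of its group here, and the difference of 4.04 ± 0.95 (adjusted p = 0.00312) was 2.95 without it (adjusted p = 0.0315). THI2.2, the other thionin of the list, had 0.90, 1.28 and 0.36 in dark cotyledon and 2.92 and 2.12 in dark hypocotyl and was not called (-1.67 ± 0.84, adjusted p = 0.18). YAB2, a YABBY transcription factor of the abaxial side of lateral organs, had 1.58, 3.31 and 5.4 in dark cotyledon and -0.54 and 2.0 in dark hypocotyl. Its organs overlapped, and its call sits at the threshold (difference 2.7 ± 0.96, adjusted p = 0.04999). YAB2 was the 1 gene called of 3 tested in the organ polarity and leaf development list. The other 2 had negative differences, -0.33 and -0.22. THI2.1 was not called without dark hypocotyl replicate 2 (adjusted p = 0.0922). YAB2 was not called without dark cotyledon replicate 2 (difference 2.76, adjusted p = 0.0816). Its difference was 1.72 without dark cotyledon replicate 3 (adjusted p = 0.252) and 1.43 without dark hypocotyl replicate 1 (adjusted p = 0.542).

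A few other genes with a symbol were also higher in dark cotyledon. UGT88A1, a UDP-glucosyltransferase, had 1.6, 2.37 and 2.29 in dark cotyledon and 0.0059 and -0.42 in dark hypocotyl (difference 2.3 ± 0.51, adjusted p = 0.00194). ARA12, a subtilisin-like protease, had 3.94, 3.64 and 3.38 in dark cotyledon and 2.4 and 2.37 in dark hypocotyl (difference 1.27 ± 0.24, adjusted p = 0.000312). CCL had 3.98, 4.26 and 4.28 in dark cotyledon and 0.15 and 0.37 in dark hypocotyl, a difference of 3.92 ± 0.56 (adjusted p = 7.79e-06). It is annotated as CCR-like and is given no role here. Smaller calls were UBP15 (1.23) and UBP25 (1.03), ubiquitin-specific proteases, TUA6 (1.3), an alpha-tubulin, and MCCA (1.13), a subunit of the leucine-degrading methylcrotonyl-CoA carboxylase. UBP25, TUA6 and MCCA lost their calls without dark cotyledon replicate 1 (adjusted p = 0.0582, 0.171 and 0.123). Without dark hypocotyl replicate 1, UBP15, UBP25, TUA6 and MCCA were not called (adjusted p = 0.0986, 0.145, 0.158 and 0.171). Without replicate 2, UBP25, TUA6 and MCCA were not called (0.0641, 0.195 and 0.087), and TUA6 missed narrowly without dark cotyledon replicate 3 (0.0505).

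The 15 genes furthest above dark hypocotyl also held 5 known here by locus number alone, to which no role is given. AT1G75460 had 4.58 and 7.19 on dark cotyledon replicates 1 and 3 and -0.32 and 0.85 in dark hypocotyl (5.62 ± 1.27, adjusted p = 0.00271). AT5G02160 had 2.63, 1.95 and 1.81 in dark cotyledon and -1.98 and -1.95 in dark hypocotyl, a difference of 4.09 ± 0.24 with the smallest SE of the 15 (adjusted p = 2.39e-13). AT2G42220 differed by 4.05 ± 0.66 (adjusted p = 4.97e-05) and AT4G28740, with values on 2 dark cotyledon arrays, by 3.81 ± 1.24 (adjusted p = 0.0323). AT3G13940 had -1.11, 2.5 and 2.96 in dark cotyledon and -2.45 and -2.6 in dark hypocotyl, with dark cotyledon replicate 1 between the others and dark hypocotyl. Its difference was 3.97 ± 0.56, and 5.25 without that array. AT4G28740 was not called without dark hypocotyl replicate 1 or 2 (adjusted p = 0.127 and 0.144).

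Genes lower in dark cotyledon were led by loci with no annotated role in the tables used. AT1G27030 had 0.91, 1.83 and 1.81 in dark cotyledon, against 6.9 and 7.38 in dark hypocotyl, a difference of -5.62 ± 0.73 or 49.2-fold lower (adjusted p = 1.17e-06). AT1G04560 had -0.43, 1.36 and 1.85 in dark cotyledon and 5.96 and 6.17 in dark hypocotyl (-5.14 ± 1.12, adjusted p = 0.00209). AT5G19890 had 0.45, 0.57 and 0.07 in dark cotyledon and 5.25 and 4.78 in dark hypocotyl over 2 probes (-4.65 ± 0.84, adjusted p = 0.000158). In each, the dark hypocotyl levels were far above the array median while dark cotyledon was within a few log2 units of it.

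AT2G37130, also read by 2 probes, had 2.49, 1.94 and 1.88 in dark cotyledon and 6.61 and 6.24 in dark hypocotyl (-4.32 ± 0.63, adjusted p = 1.71e-05). AT5G10580 had 0.67 and 0.38 on dark cotyledon replicates 2 and 3 and 4.74 and 6.47 in dark hypocotyl (-5.07 ± 0.87, adjusted p = 0.000115). AT3G17520 had 1.15, -1.09 and -0.73 in dark cotyledon and 3.94 and 4.23 in dark hypocotyl (-4.31 ± 1.00, adjusted p = 0.00276). The other loci among the 15 lowest were AT5G48290, AT1G48750, AT2G42060, AT3G21770, AT5G64100, AT1G75340 and AT3G28550, with differences between -4.46 and -3.24. Of the 15 lowest, 11 kept their call under every alternative run, against 8 of the 15 highest. Calls were lost without dark hypocotyl replicate 1 for AT5G48290 and AT1G75340 (adjusted p = 0.0623 and 0.16), and for AT2G42060 without dark hypocotyl replicate 2 (0.293) and without dark cotyledon replicate 2 (0.0778).

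OSM34, an osmotin-like protein of the defence-related thaumatin family, was low in both organs and lower still in dark cotyledon. It had -7.15, -8.01 and -8.15 in dark cotyledon, against -3.62 and -3.78 in dark hypocotyl, a difference of -4.06 ± 0.41 (adjusted p = 9.39e-09). As deposited, its dark cotyledon ratios were 0.004 to 0.011, a few steps above the lowest ratio of 0.001 in which the table is written, so their order among arrays is coarse. Because levels are centred, a level below 0 means a ratio below the median of its array, and not necessarily less RNA than in cultured cells.

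SFP1, a sugar-porter family protein that is in no list, was lower in dark cotyledon. It had -5.25, -5.33 and -5.5 in dark cotyledon and -2.04 and -2.2 in dark hypocotyl (-3.24 ± 0.37, adjusted p = 4.5e-07). SWEET17, a fructose carrier of the vacuole, was also called lower and had 1.27, 0.073 and 0.26 in dark cotyledon and 3.45 and 2.66 in dark hypocotyl (-2.52 ± 0.79, adjusted p = 0.0246). It was the 1 call among the 5 transport genes tested. The other 4 had positive differences that were not called. GSTU27, a tau-class glutathione transferase, was also lower, by a difference of -1.31 ± 0.33 (adjusted p = 0.00507). SWEET17 lost its call without any 1 of dark cotyledon replicates 2 and 3 (adjusted p = 0.0752 and 0.0628) and dark hypocotyl replicates 1 and 2 (0.217 and 0.069), and GSTU27 without dark hypocotyl replicate 1 (0.0837).

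Of 3 annotated class III peroxidases, enzymes of the cell wall that oxidise phenolics and lignin precursors, 1 was lower, 1 higher and 1 not called, with and without dark cotyledon replicate 1. PRXR1 had 1.33, 1.03 and 1.03 in dark cotyledon and 3.76 and 3.68 in dark hypocotyl, as the mean of 2 probes (-2.59 ± 0.39, adjusted p = 4.42e-05). AT5G64120, annotated as a peroxidase, had 0.74, 2.6 and 2.18 in dark cotyledon and 4.95 and 4.74 in dark hypocotyl. Its arrays did not overlap, and its difference of -3.0 ± 1.09 missed the threshold (adjusted p = 0.0538). AT5G66390, also annotated as a peroxidase, was the higher one, with -0.044, -0.54 and -0.71 in dark cotyledon and -1.63 and -1.83 in dark hypocotyl (1.3 ± 0.31, adjusted p = 0.00289). It was not called without dark hypocotyl replicate 2 (adjusted p = 0.0535). The count covers genes whose name or synonym in the annotation says peroxidase. Loci without such a name, among them AT2G37130, AT5G19890, AT3G21770 and AT5G64100, which were lower, were assigned to no family, so the count does not describe the peroxidase family.

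PYK10, the main beta-glucosidase of the ER bodies of root and hypocotyl, had 1.63, 0.99 and 1.1 in dark cotyledon and 3.4 and 3.1 in dark hypocotyl (-2.01 ± 0.56, adjusted p = 0.0145). None of the other 5 beta-glucosidases tested was called, and the 2 probes of BGLU16 disagreed, with differences of -1.60 (called) and 0.34. ATSPO11-1, known for meiotic DNA breaks, and RECQ4B, a RecQ helicase, were lower by differences of -1.82 ± 0.57 and -1.55 ± 0.40 (adjusted p = 0.0276 and 0.00627). ATSPO11-1 had 0.031, -0.67 and 0.29 in dark cotyledon and 1.71 and 1.69 in dark hypocotyl. PYK10 was not called without dark hypocotyl replicate 1 or 2 (adjusted p = 0.126 and 0.0669), nor RECQ4B without replicate 2 (0.109). ATSPO11-1 was not called without dark hypocotyl replicate 1 or 2 (0.141 and 0.135) or dark cotyledon replicate 2 (0.0994).

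**Figure D3:**
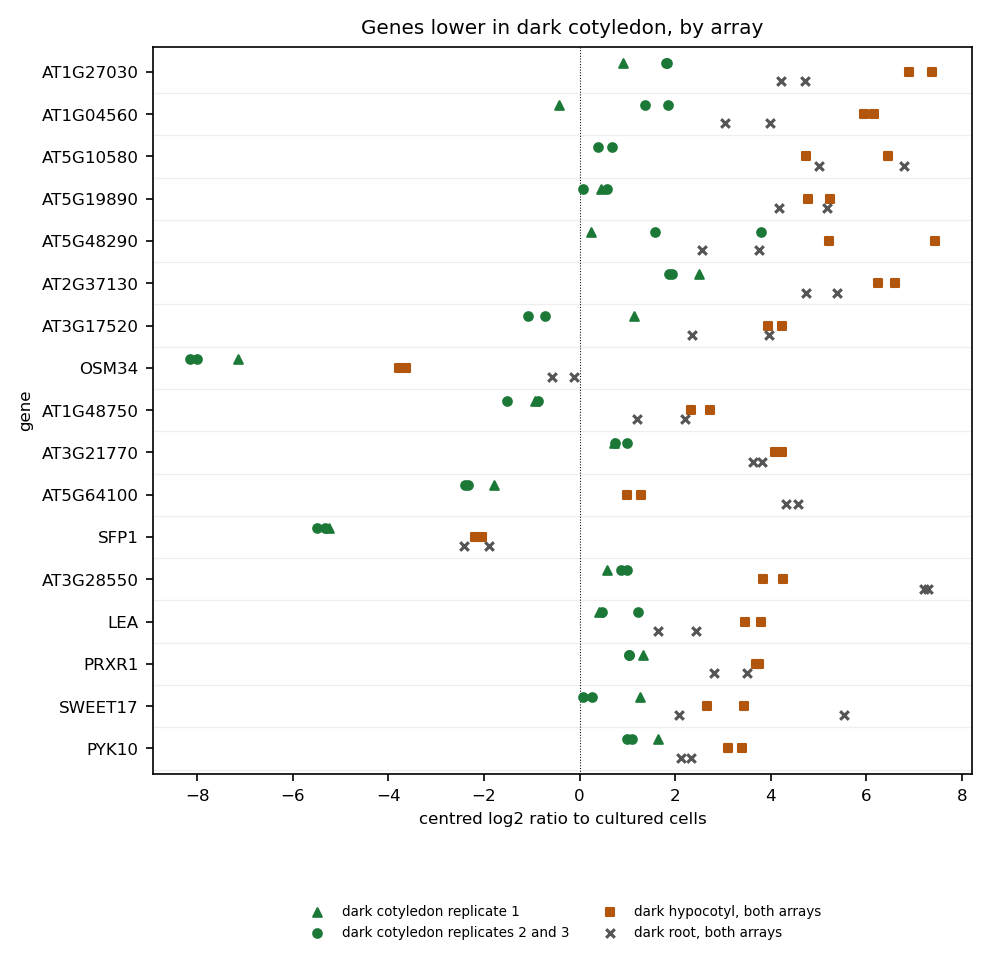
Centred log2 ratio to cultured cells on each dark cotyledon array (green, replicate 1 as triangles), each dark hypocotyl array (brown squares) and each dark root array (grey crosses) for 17 genes called lower in dark cotyledon. Dark hypocotyl arrays lie right of all dark cotyledon arrays for every gene shown, and dark root values lie right of the dark cotyledon arrays for most genes.

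A root list was read beside these genes. PYK10, LBD16, a regulator of lateral root initiation, and MT1C, a metallothionein, form the root list, of which 1 of 3 was called lower and none higher, with and without dark cotyledon replicate 1. LBD16 had -2.04, -2.62 and -2.69 in dark cotyledon and -0.80 and -0.73 in dark hypocotyl, against 0.036 and -0.69 in dark root, and was not called (adjusted p = 0.102). The median of the 3 genes equals the LBD16 level on each of these arrays. MT1C had -3.93, -4.37 and -4.47 in dark cotyledon and -3.89 and -4.14 in dark hypocotyl, which overlap, and was not called either (adjusted p = 0.781). The dark hypocotyl arrays correlated at 0.72 with dark root arrays, and the dark cotyledon arrays at 0.55 to 0.63. The part of root tissue or root-expressed genes in the difference was not tested. The 1 call of the list, PYK10, was lost without either dark hypocotyl array (adjusted p = 0.126 and 0.0669).

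Among the lower genes themselves, dark root levels differed from gene to gene. AT3G28550 had 7.2 and 7.3 in dark root, above both 0.58, 0.98 and 0.86 in dark cotyledon and 4.26 and 3.83 in dark hypocotyl. AT5G64100 likewise had 4.57 and 4.33 in dark root, against -1.79, -2.34 and -2.39 in dark cotyledon and 1.29 and 0.98 in dark hypocotyl. AT1G27030 had 4.72 and 4.21 in dark root, between the organs. AT1G75340 had -3.69 on average in dark root, below the dark cotyledon levels of -3.27, -3.04 and -3.09, with 1.04 and -0.70 in dark hypocotyl. These values are set side by side and were not tested against each other.

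Several groups that could be looked for in a comparison of these organs gave no call. None of 6 cell wall loosening genes, 6 light signalling genes, 9 genes of amino acid and sulphur metabolism, 4 of cell proliferation, 3 of seed storage and late embryogenesis, 3 of epidermis and cuticle and 2 of glucosinolate synthesis was called in the reported fit. Over all named genes 20.7% were called, and lists this small can hold no call at that share. Without dark cotyledon replicate 1, the wall gene EXGT-A3 was lower (-1.0, adjusted p = 0.0251) and the light signalling gene SPT higher. SPT, a growth regulator of the light signalling list, had 0.55, 2.97 and 3.15 in dark cotyledon and 0.016 and 1.16 in dark hypocotyl. Its difference of 1.64 ± 0.66 (adjusted p = 0.0861) was 2.48 without dark cotyledon replicate 1 (adjusted p = 0.00742). GH9B7, an endoglucanase of the wall list, had 3.18, 4.58 and 4.27 in dark cotyledon and 3.42 and 3.96 in dark hypocotyl, a difference of 0.32 ± 0.53 (adjusted p = 0.74).

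A missed threshold does not show that these genes were equal in the organs. OLEO3, an oil body protein, had 4.7 and 4.53 on dark cotyledon replicates 2 and 3 and 2.84 and 4.46 in dark hypocotyl (adjusted p = 0.57). SHN3, a regulator of cuticle formation, had 1.16 and 2.37 on the same dark cotyledon arrays and 0.14 and 0.0093 in dark hypocotyl (adjusted p = 0.364). AIM1, of fatty acid beta-oxidation, differed by -0.19 ± 0.31 (adjusted p = 0.746), and EIN3, a transcription factor of ethylene signalling, by 0.85 ± 0.32 (adjusted p = 0.0656). CCR2, cinnamoyl-CoA reductase of lignin synthesis, differed by -0.94 ± 0.73 (adjusted p = 0.416). The plot of differences by list shows how wide most lists were beside photosynthesis and chlorophyll synthesis.

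**Figure D4:**
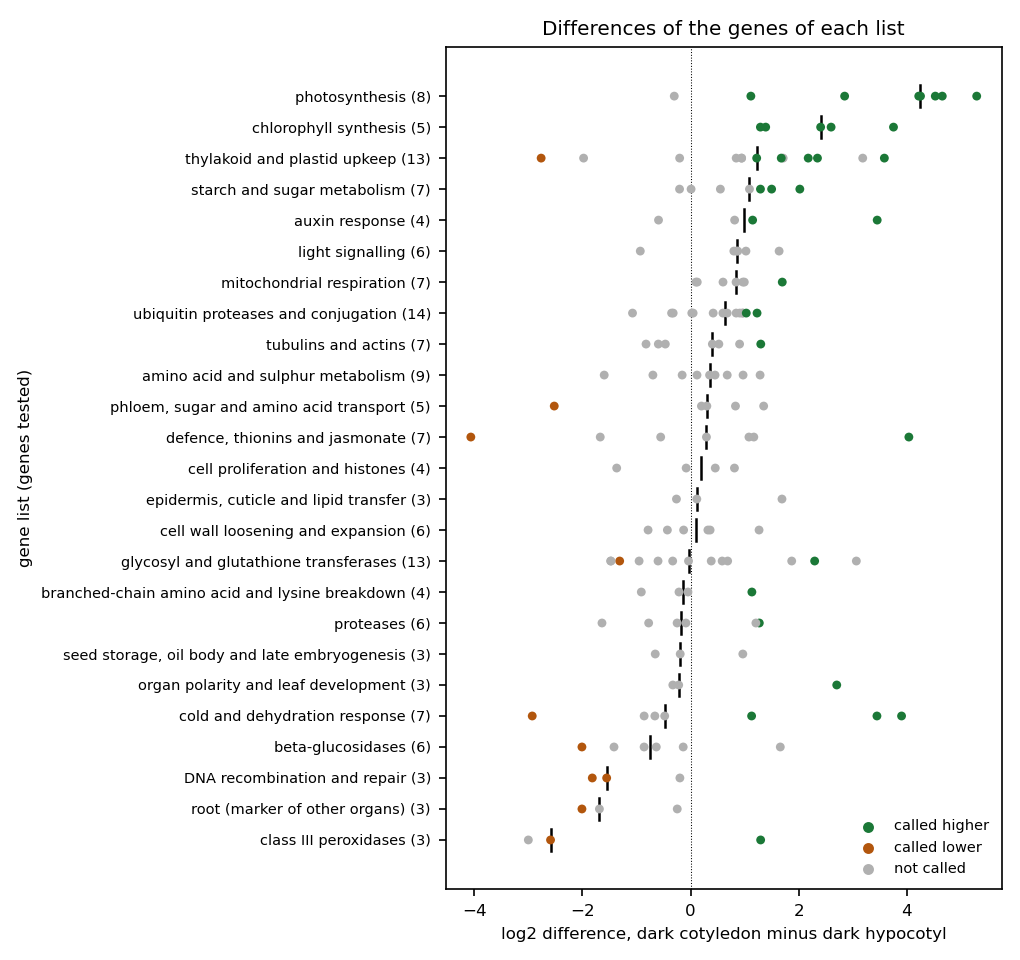
Log2 difference of dark cotyledon minus dark hypocotyl for each tested gene of the 25 lists with at least 3 tested genes, ordered by the list's median (black tick). Green genes were called higher, brown lower and grey not called, and the 2 top lists have medians of 4.24 and 2.41.

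The same organs were measured in light, on other arrays, which asks whether the organ difference depends on light. Of 14564 probes tested, 4294 (29.5%) were called between light cotyledon and light hypocotyl. Light cotyledon was the higher organ at 1135 of them (7.79%) and the lower at 3159 (21.7%). The light hypocotyl arrays held 19225 and 19286 values, fewer than the other arrays compared, and correlated at 0.63 with each other. With the 4 light arrays fitted alone, no probe was called by limma at the adjusted threshold, and 4636 had an unadjusted p under 0.05. The share of light calls that were higher was 26.4% as reported, 9.64% with no centring and 42.3% when arrays were centred on probes with a value on all 9 arrays, a setting chosen after the data were seen.

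As measured over all probes, the organ difference in the dark correlated only weakly with that in light. The light hypocotyl arrays correlated at 0.63 with each other. Spread between arrays lowers such a correlation, and by how much was not estimated. Over 13697 probes tested in both, the 2 differences correlated at 0.19, and over 1096 named genes at 0.31, as a description across genes that share arrays. Of 188 named genes higher in dark cotyledon and tested in light, 57 were also higher in light cotyledon and 16 were lower, beside 10.7% higher and 20.6% lower over all named genes in light, 31.3% in all. Of 54 named genes lower in dark cotyledon and tested in light, 21 were also lower in light cotyledon and 1 was higher. That gene, AT3G47070, was looked up after its values were seen. It differed by -1.63 ± 0.45 in the dark (adjusted p = 0.00993) and by 1.72 ± 0.49 in light (adjusted p = 0.00714).

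The difference between dark and light was tested directly, as the dark difference minus the light difference. It was called at 3777 of 13697 probes (27.6%), 3220 positive (23.5%) and 557 negative (4.07%). Of those calls 85.3% were positive, against 65.6% when arrays were centred on probes with a value on all 9 arrays, and the median over all probes was 0.67 in the reported fit and 0.17 in that one. The share of positive calls therefore moves with the centring. Among named genes, 30% were called, 25.4% positive and 4.65% negative.

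Of 13 genes of the photosynthesis, chlorophyll synthesis and plastid upkeep lists with a tested interaction, 5 were called positive and none negative, beside 25.4% positive and 4.65% negative over all named genes. With arrays centred on probes with a value on all 9 arrays, 3 were positive and 3 negative (ATHM2, PSAN and THX). Without light hypocotyl replicate 1, where 19 were tested, 3 were positive and 2 negative, and without dark hypocotyl replicate 2, 3 were positive. LHCB4.1 had 5.0 and 4.53 in light cotyledon and 2.09 and 1.89 in light hypocotyl, a light difference of 2.78 ± 0.44 (adjusted p = 0.000209). Its interaction was not called (adjusted p = 0.225, the higher of its 2 probes), where a call needs both probes. The probes were unlike: probe 1 differed by 4.06 in the dark and 3.34 in light, and probe 2 by 4.45 and 2.21. PSAN, with 7.74 and 7.93 in light cotyledon and 4.46 and 3.23 in light hypocotyl, differed by 3.99 ± 0.42 in light (adjusted p = 2.08e-08), and its interaction of -1.14 ± 0.57 was not called (adjusted p = 0.136). PSB27 had 0.48 and 0.62 in light cotyledon and 2.83 and 3.16 in light hypocotyl, the reverse of the dark order (-2.44 ± 0.30, adjusted p = 2.25e-07), with an interaction of 3.56 ± 0.40 (adjusted p = 1.43e-07). Its interaction was called under every alternative run.

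CHLM had 3.85 and 3.28 in light cotyledon and 3.98 and 2.72 in light hypocotyl, a light difference of 0.21 ± 0.41 (adjusted p = 0.747). Its interaction of 2.2 ± 0.56 was called (adjusted p = 0.00389): the gap seen in the dark was larger than that in light. HEMB1 differed by 1.31 ± 0.32 in light (adjusted p = 0.00192), close to its dark difference, with an interaction of 0.076 ± 0.43 that was not called (adjusted p = 0.913). Without light hypocotyl replicate 1, the CHLM interaction was 1.57 (adjusted p = 0.0529). HEME2 had a light difference of 0.95 ± 0.40 (adjusted p = 0.0654) and an interaction of 1.65 ± 0.54 (adjusted p = 0.0213). That call was lost after scaling (adjusted p = 0.0754), after quantile normalisation (0.0608), with only the 9 arrays fitted (0.108) and with centring on probes with a value on all 9 arrays (0.0903). It was also lost without dark cotyledon replicate 1 (0.0567), dark hypocotyl replicate 2 (0.0966), light cotyledon replicate 2 (0.102) or light hypocotyl replicate 1, where the interaction was 1.07 (0.18). LHB1B2, PSAE-1, ATPC1, PORB and HPR had too few light hypocotyl values to be tested in light.

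For genes lower in dark cotyledon, the light arrays often showed the same order. AT2G37130 had -3.64 and -4.98 in light cotyledon and 3.02 and 3.52 in light hypocotyl, a light difference of -7.58 ± 0.69 (adjusted p = 1.21e-09) that was larger than the dark one (interaction 3.26 ± 0.93, adjusted p = 0.00837). The interaction was not called without light cotyledon replicate 2 (adjusted p = 0.0907) or light hypocotyl replicate 2 (0.0554). OSM34 had -8.63 and -9.35 in light cotyledon and -3.21 and -3.31 in light hypocotyl (-5.73 ± 0.45, adjusted p = 2.87e-11). Its light cotyledon levels lay even nearer the lowest ratio than those in the dark, so the size of its light difference is coarse. AT5G64100 had -3.6 and -3.25 in light cotyledon and 1.53 and 2.29 in light hypocotyl (-5.33 ± 0.63, adjusted p = 1.47e-07). All 3 were thus lower in cotyledon in both conditions.

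KIN1 had 6.85 and 6.89 in light cotyledon and 4.85 and 3.97 in light hypocotyl, a light difference of 2.46 ± 0.71 (adjusted p = 0.00798), and its interaction was not called (adjusted p = 0.274). ATNTT2 had -0.52 and -0.74 in light cotyledon and 0.048 and 0.30 in light hypocotyl. Its light difference of -0.80 ± 0.42 was not called (adjusted p = 0.15), and its interaction of 2.82 ± 0.57 was (adjusted p = 0.000446). The plot of dark against light differences shows the named genes lower in dark cotyledon mostly in the lower left, and those higher in dark cotyledon spread around 0 in light. Their median light differences were -1.09 and 0.30. Over all 1096 named genes tested in both conditions the median was -0.29, so light differences as a whole sat below 0. Both sets are to be read against that median, which depends on the centring.

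**Figure D5:**
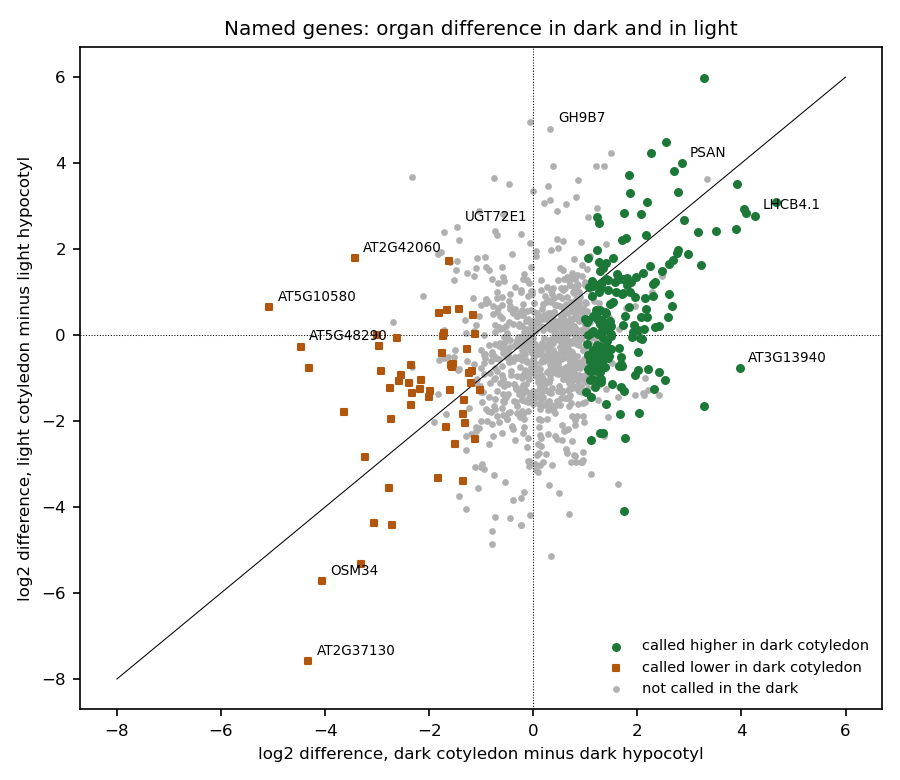
Log2 difference of light cotyledon minus light hypocotyl (vertical) against that of dark cotyledon minus dark hypocotyl (horizontal) for 1096 named genes tested in both. Green circles were called higher and brown squares lower in dark cotyledon, grey points were not called there, and the line marks equal differences.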

How the data were processed

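The deposited values are log2 ratios per probe and array, whose scale no source used here states. Values below -1 were whole thousandths of a ratio (99.97% within 0.01 of a thousandth), which gave the unit. The scanning, background correction and normalisation by the authors are not given in the sources used here. Signal strength was not analysed.

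The table holds 27648 probes. A single gene symbol was annotated for 2032, of which 2029 matched RefSeq TAIR10.1 (names only), and several symbols for 644. Genomic-clone probes (182) and 19 discordant probes were left unnamed, which gave 27600 features and 1748 named genes. Ratios were centred on the array median, and 1 mean per group was fitted to the 51 arrays and moderated as in limma 3.58.1 (R 4.3.3). Tests were two-sided, with Benjamini-Hochberg adjustment over all probes with at least 2 values in each group, and a call needs an adjusted p under 0.05 and 2-fold. The fit was also run on simulated arrays, whose outcome is not used here. Their noise was normal, independent between arrays and of equal spread on every array for a probe. The measured arrays, with dark cotyledon replicate 1 apart from its group, differ from that setting. A gene's value is the mean of its probes, with the largest SE and p, and is called where all its probes are. The rule named the 15 highest and 15 lowest called genes with non-overlapping arrays, the 4 largest calls per list, all tested genes of lists of up to 3, and the 6 largest interactions. Not every gene chosen by the rule is described. The members, the lists and the rule were chosen with earlier results of these data known, and some lists after gene names were seen. Alternatives covered centring, scaling, the arrays fitted, missing and lowest values, the fold minimum, a replicate block and leaving out each array.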

Additional observations from a re-analysis of the deposited data

Results flagged for a closer look

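The organ difference itself differed between dark and light at 3777 probes, by the test of the dark difference minus the light difference. Of the genes named here, 6 had the largest such interactions. AT5G10580 differed by -5.72 ± 1.24 (adjusted p = 0.00103): it had 0.67 and 0.38 in dark cotyledon (2 arrays) and 4.74 and 6.47 in dark hypocotyl, and 1.22 and -0.60 in light cotyledon and -1.06 and 0.39 in light hypocotyl. AT2G42060 differed by -5.22 ± 1.57 (adjusted p = 0.0133), with -0.39, -1.39 and -0.022 in dark cotyledon and 1.84 and 3.81 in dark hypocotyl, and 0.83 and 0.57 in light cotyledon and -1.16 and -1.03 in light hypocotyl. AT5G48290 differed by -4.19 ± 1.34 (adjusted p = 0.0214), and its light hypocotyl values of 2.31 and -0.54 lay far apart. The AT2G42060 interaction was not called without dark hypocotyl replicate 2 (-4.23, adjusted p = 0.0872). That of AT5G48290 was not called without light cotyledon replicate 1 (adjusted p = 0.0688), dark cotyledon replicate 1 (0.0645), light hypocotyl replicate 2 (-2.77, 0.166) or dark hypocotyl replicate 1 (-3.09, 0.141), after scaling (0.0865) or with only the 9 arrays fitted (0.157).

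AT3G13940 was the gene of the 6 with a positive interaction, 4.74 ± 0.83 (adjusted p = 8.91e-05). It was not called with only the 9 arrays fitted (adjusted p = 0.0896). Its light values were -2.58 and -1.9 in light cotyledon and -1.29 and -1.64 in light hypocotyl. GH9B7, the wall endoglucanase that did not differ detectably in the dark, had 4.2 and 3.92 in light cotyledon and -1.16 and -0.33 in light hypocotyl, a light difference of 4.8 ± 0.58 (adjusted p = 3.04e-07) and an interaction of -4.48 ± 0.79 (adjusted p = 0.000114). UGT72E1, a glucosyltransferase of lignin precursors, had -0.11, 3.22 and 3.71 in dark cotyledon and 4.06 and 3.42 in dark hypocotyl, and 5.79 and 3.29 in light cotyledon and 2.03 and 2.03 in light hypocotyl. Its interaction was -3.98 ± 1.39 (adjusted p = 0.0317), and without dark cotyledon replicate 1, which was far below the others, it was -2.79 (adjusted p = 0.109). The call was also lost without light cotyledon replicate 1 (-2.73, adjusted p = 0.201), light hypocotyl replicate 1 (0.0695) or 2 (0.0694), or dark hypocotyl replicate 1 (0.1) or 2 (0.0557). It was lost after scaling (0.0598), with only the 9 arrays fitted (0.161) and with only arrays against cultured cells with the organ in channel 2 (0.0677). All of these rest on the light hypocotyl arrays, which held the fewest values of the arrays compared.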

How the results depend on the processing

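The dark contrast called 3697 probes as reported. It called 2220 with arrays scaled to a common median absolute value, and between 2039 and 3254 with 1 array left out, the lowest being without dark hypocotyl replicate 1 (2039) and replicate 2 (2077). The light contrast called 0 probes with the 4 light arrays fitted alone, against 4294, and 2915 to 4663 with 1 array left out. The difference between dark and light called 2439 probes after scaling and 2383 with only the 9 arrays compared, against 3777, and 2511 to 3991 with 1 array left out, the lowest without light cotyledon replicate 2. The other settings stayed within 1.5 times of each count. Of 161 listed genes, 45 were called, and 25 to 45 with 1 array left out, the lowest without dark hypocotyl replicate 2. Of 81 named genes, 61 were called, and 41 to 55 with 1 array left out. A group left with 1 array is assumed to vary like the others. Of 66 called genes described, 32 kept their call under every alternative run and none reversed. With only the 5 dark arrays fitted, the calls of AT1G75460, AT3G13940, AT5G48290, AT5G66390, DI19, GSA1, GSTU27, MCCA, NdhN, PSB27, TAPX, THI2.1, THX, TUA6, UBP25 and YAB2 were lost. Centring on named probes ended those of DI19, IAA18, LPA19, MCCA, PSB27, TUA6, UBP25 and YAB2, and no centring those of AT4G28740, GSA1, LPA19, MCCA, THX, TUA6, UBP25 and YAB2. Scaling or quantile normalisation also ended those of AT2G42060, AT3G17520, ATSPO11-1, LEA, SWEET17 and TPI, and the cause of these losses was not tested. IVD, of leucine breakdown, was not called as reported (-0.05) and was 2.19 without dark hypocotyl replicate 1 and -2.29 without replicate 2. With the label number as a replicate block, 3302 probes were called in the dark, 4364 in light and 3823 for their difference. Of the arrays blocked, only a dark cotyledon array carried number 3, so the block took that array out of the dark difference. The IVD difference, for example, was -0.059 both with the block and without dark cotyledon replicate 3. Deviations of same-numbered dark arrays from their group means correlated at 0.018 and 0.019. With 2 dark hypocotyl arrays, the deviations of 1 mirror those of the other, so these are not separate values. Whether the numbers pair the arrays cannot be told from them. Signal over background, which sets the precision of an array, was not analysed here.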

Other observations

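The genes called in the dark were also read in organs that took no part in the comparison, relative to the median of all named genes in the same organ. The 235 genes higher in dark cotyledon had a median 0.99 above that of all named genes in rosette leaf, 0.83 in cauline leaf, 0.79 in stem and 0.56 in light cotyledon. In dark root their median was 0.54 below (-0.54), and in germinating seed 0.82 below (-0.82). The 99 genes lower in dark cotyledon had a median 0.94 above that of all named genes in dark root, 0.75 above in light root, 0.66 above in germinating seed and 0.46 above in light hypocotyl. In rosette leaf, cauline leaf and stem it was -0.50, -0.55 and -0.52, and in light cotyledon -0.018. Rosette leaf, cauline leaf and stem RNA was in channel 1, so organ and dye cannot be told apart there. These medians are descriptions with no test.

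Relative to all named genes, the genes higher in dark cotyledon had a median of -0.083 in light hypocotyl and -0.33 in light root. In flower and fruit it was 0.22 in siliques labelled 3DPP, -0.22 in siliques labelled 8DPP, 0.074 in pistils labelled 1DBP, -0.053 in pistils labelled 1DPP, -0.20 in sepal, -0.39 in petal and -0.40 in stamen. The genes lower in dark cotyledon had medians of -0.48 and -0.31 in siliques labelled 3DPP and 8DPP, -0.59 and -0.35 in pistils labelled 1DBP and 1DPP, -0.42 in sepal, -0.035 in petal and -0.13 in stamen.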
